A study of Bos taurus with 6 samples.

Results

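Triacylglycerol is the storage fat of cells. It is built on glycerol phosphate by adding one fatty acyl chain (GPAT enzymes), adding the next (AGPAT enzymes), removing the phosphate (lipins) and adding the last chain to diacylglycerol (DGAT enzymes). A shorter route starts from monoacylglycerol, which MOGAT enzymes turn into diacylglycerol. In muscle this fat lies in adipocytes between the fibres, where it makes up marbling, and in droplets within the fibres. Macrophages and other leukocytes can make it too.

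The 7 enzymes described here are GPAT3, GPAT4, AGPAT2, AGPAT4, LPIN2, MOGAT1 and DGAT2, taken by name from the 2040 genes of the deposited table. RNA was sequenced from longissimus dorsi, the long back muscle, of Angus and of Chinese Simmental cattle aged 18 months, with 3 libraries per breed and no treatment named in the labels. Intramuscular fat content is the subject named in the study's title. Nothing in the labels ties each library to its own animal, so errors and p-values here cover the spread between these libraries, which may be technical. The table lists only genes that the authors had selected, since the smallest absolute log2 fold change in the authors' deposited table was 1.00 and the largest adjusted p was 0.0492. A breed difference in every enzyme was therefore set in advance, and the tests below describe its size without adding evidence for it. Of the 17 genes fixed for triacylglycerol synthesis, the other 10, DGAT1 and GPAM among them, were not analysed here.

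Library facts bear on what follows. Counts over the listed genes summed to 12010803 to 15699184 in Angus and to 12799174 to 28883725 in Chinese Simmental libraries. These sums cover the selected genes alone, so sequencing depth is unknown here. Of 24 skeletal muscle fibre markers 3 were in the table (TPM1, TNNT3 and NEB), with summed normalized counts of 2238 to 3660 in Angus and 1958 to 4096 in Chinese Simmental. These sums join opposite differences, since TNNT3 (938 ± 527 against 195 ± 141) and NEB (1143 ± 743 against 315 ± 88.2) were called higher in Angus and TPM1 (984 ± 203 against 2524 ± 1077) in Chinese Simmental. Of 20 neutrophil and monocyte markers 16 were in the table, at 73674 to 121554 in Angus and 854398 to 1532226 in Chinese Simmental, and of 12 B cell markers 11 were, at 212099 to 299981 and 56658 to 90735. No listed marker of these lists was at 0 in all libraries. The muscle label could thus be checked on few genes, and defining muscle and adipocyte genes such as ACTA1, MYH1, ADIPOQ and FABP4 were not analysed here. In mean FPKM (counts scaled by transcript length), TNNT3 was at 7.06 in Angus and 1.47 in Chinese Simmental. NEB was at 2.63 and 0.729, and TPM1 at 98.2 and 249. The B cell marker CD79A was at 275 and 83.3, and the neutrophil and monocyte marker S100A12 at 278 and 2292. How much of the RNA came from each cell type was not tested. In bulk tissue a change in the number of cells of a type and a change in RNA per cell cannot be told apart.

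With the authors' size factors GPAT3, GPAT4, LPIN2, MOGAT1 and DGAT2 were higher in Chinese Simmental, although GPAT4 and LPIN2 changed sign with factors computed over the listed genes. Such factors centre a table of selected genes by construction. They moved fold changes toward Angus by a median of 1.36 (TMM) and 1.35 (RLE) on the log2 scale. AGPAT2 and AGPAT4, which act at the same step, were higher in Angus under every scaling tried. In edgeR's quasi-likelihood test with Benjamini-Hochberg adjustment over 1989 listed genes, 5 of 7 enzymes were called higher in Chinese Simmental, where 75.0% of all tested listed genes were called in that direction. In that test 2 of 7 were called higher in Angus, where the background was 24.9%. The split of the enzymes was close to that of the listed genes as a whole. With TMM factors 2 of 7 enzymes were called higher in Chinese Simmental, against 12.9% of tested listed genes, and 2 of 7 higher in Angus, against 25.3%. With RLE factors the enzymes gave the same counts, against 13.2% and 25.3%. The breeds did not overlap for any of the 7 enzymes in normalized counts, against 90.3% of listed genes. The median log2 fold change, Angus minus Chinese Simmental, was -1.33 over the enzymes and -1.57 over all tested genes. A normalized count is a count divided by the library's size factor.

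**Figure D1:**
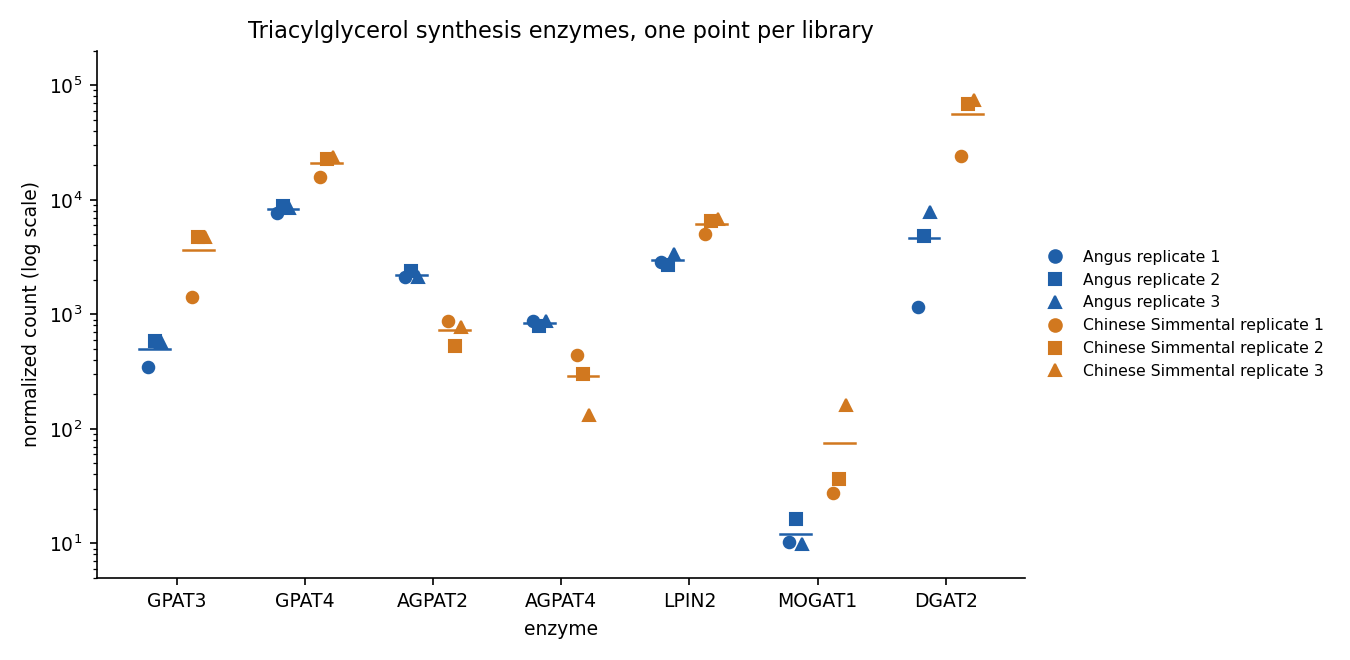
Normalized count (log axis) of each enzyme in each library, with a short line at the mean of each breed. DGAT2 runs from 1160 to 7870 in Angus and from 23939 to 73863 in Chinese Simmental, AGPAT2 and AGPAT4 lie higher in Angus, and MOGAT1 lies lowest of all. Relative to factors computed over the listed genes, GPAT4 and LPIN2 change sign.

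The first acylation is carried out by GPAT3 and GPAT4, related acyltransferases of the endoplasmic reticulum. GPAT3, known as an adipocyte enzyme, stood at 346, 582 and 570.0 normalized counts in Angus replicates 1 to 3 and at 1428, 4722 and 4775 in Chinese Simmental replicates 1 to 3. The breeds did not overlap, and Chinese Simmental replicate 1 lay between the Angus libraries and the other libraries of its breed. The Chinese Simmental mean of 3642 ± 1917 (SD, n = 3) was 7.29 times the Angus mean of 499 ± 133, with a log2 fold change of -2.87 ± 0.53 (SE) and adjusted p = 0.00367 in edgeR's quasi-likelihood test. GPAT4, which is needed for milk fat in mice, stood at 7672, 8758 and 8509 in Angus and at 15910, 22908 and 23684 in Chinese Simmental. Its Angus libraries lay within 1.14-fold of each other, and even the nearest libraries of the breeds were 1.82-fold apart. The mean of GPAT4 was 2.51-fold higher in Chinese Simmental, with a log2 fold change of -1.33 ± 0.35 and adjusted p = 0.00947 in edgeR's quasi-likelihood test. With TMM factors over the listed genes the value for GPAT4 was 0.045 (adjusted p = 0.933 in edgeR), so its direction depended on the scaling used. Those factors moved fold changes toward Angus by a median of 1.36. On log2(FPKM + 1) the value for GPAT4 was -1.20 (adjusted p = 0.00858 in limma).

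FPKM, which is scaled by transcript length, placed GPAT4 above GPAT3 in all libraries. GPAT4 was at 27.4 ± 0.48 FPKM in Angus and 64.7 ± 8.72 in Chinese Simmental, and GPAT3 at 7.60 ± 1.98 and 36.4 ± 7.31. The breed fold of GPAT3 was 4.79 in mean FPKM, against 7.29 in counts. Counts and FPKM of GPAT3 did not move together from library to library. The count per FPKM of GPAT3, relative to the median of the library, was 0.441, 0.916 and 0.514 in Angus replicates 1 to 3 and 0.470, 0.933 and 1.08 in Chinese Simmental replicates 1 to 3. Its SD over libraries was 0.58 on the log2 scale, where the median listed gene had 0.0666 and 2.89% of the 1487 genes compared had a larger one. For GPAT4 the SD was 0.0419. The size of the GPAT3 difference depended on the scaling as well as the unit. Its log2 fold change was -1.43 with TMM factors (adjusted p = 0.0339 in edgeR) and -1.39 with RLE factors (adjusted p = 0.0380 in edgeR), in the same direction throughout.

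The next acyl chain is added by AGPAT enzymes, which make phosphatidic acid. AGPAT2, whose loss in humans causes congenital lipodystrophy, stood at 2106, 2403 and 2136 normalized counts in Angus and at 877, 524 and 782 in Chinese Simmental. Its Angus libraries were within 1.14-fold of each other, and the lowest of them was 2.40-fold above the highest Chinese Simmental library. The mean was 3.04-fold higher in Angus (log2 fold change 1.61 ± 0.37, adjusted p = 0.00634 in edgeR's quasi-likelihood test). AGPAT4, an acyltransferase of the same family, stood at 879, 792 and 871 in Angus and at 440, 302 and 132 in Chinese Simmental. The Angus libraries lay close together and the Chinese Simmental libraries spread over 3.33-fold. The mean was 2.91-fold higher in Angus (log2 fold change 1.54 ± 0.50, adjusted p = 0.0170 in edgeR's quasi-likelihood test). On the FPKM scale AGPAT2 lay above AGPAT4 in every library, at 113 ± 11.5 against 9.30 ± 1.83 in Angus and 36.6 ± 12.0 against 3.35 ± 2.16 in Chinese Simmental. The B cell markers were also higher in Angus (11 of 11 listed, sums given above). Among Angus libraries replicate 2 was highest for both their sum and AGPAT2, but in Chinese Simmental replicate 2 was lowest for AGPAT2 while replicate 3 was lowest for the sum. AGPAT4 followed the order of the sum in Chinese Simmental (90735, 71005 and 56658 in replicates 1 to 3) and was lowest in Angus replicate 2, where the sum was highest. The part of B cell RNA in the AGPAT2 and AGPAT4 values was not tested.

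LPIN2, a lipin, removes the phosphate from phosphatidic acid to give diacylglycerol. It stood at 2843, 2705 and 3356 normalized counts in Angus and at 5047, 6533 and 6861 in Chinese Simmental. The breeds did not overlap, and the nearest libraries were 1.50-fold apart, the smallest such gap among the 7 enzymes. Its mean was 2.07-fold higher in Chinese Simmental (log2 fold change -1.05 ± 0.33, adjusted p = 0.0164 in edgeR's quasi-likelihood test). In the authors' deposited table its log2 fold change of Chinese Simmental over Angus was 1.03, and 40 of the listed genes had a smaller absolute value, so LPIN2 sat just inside the authors' selection. The call for LPIN2 was lost without Angus replicate 1 (-1.02, adjusted p = 0.0505 in edgeR) or Angus replicate 2 (-0.99, adjusted p = 0.0678 in edgeR). Its sign turned with TMM factors (0.30, adjusted p = 0.467 in edgeR), which moved fold changes toward Angus by a median of 1.36. On log2(FPKM + 1) the value for LPIN2 was -1.02 (adjusted p = 0.0139 in limma). In FPKM it was at 20.6 ± 1.97 in Angus and 42.6 ± 2.18 in Chinese Simmental.

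MOGAT1 makes diacylglycerol from monoacylglycerol and belongs to the same protein family as DGAT2. It had the lowest counts of the 7. Raw counts were 12, 13 and 10 in Angus and 26, 40 and 165 in Chinese Simmental, with exact Poisson 95% intervals from 4.80 to 22.2 over the Angus libraries, 17.0 to 38.1 and 28.6 to 54.5 for Chinese Simmental replicates 1 and 2, and 141 to 192 for replicate 3. These intervals cover counting error only, and those of Angus overlap that of Chinese Simmental replicate 1. Normalized counts were 10.3, 16.2 and 9.84 in Angus and 27.3, 36.7 and 160 in Chinese Simmental, so the breed mean of 74.7 ± 74.2 rested largely on replicate 3. The log2 fold change was -2.62 ± 0.81 (adjusted p = 0.0151 in edgeR's quasi-likelihood test). Without Chinese Simmental replicate 3 it was -1.40 (adjusted p = 0.0915 in edgeR), and with TMM factors -1.06 (adjusted p = 0.308 in edgeR). In FPKM it reached 0.0656 ± 0.0155 in Angus and 0.329 ± 0.25 in Chinese Simmental, the lowest of the 7 enzymes.

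DGAT2 joins the last acyl chain to diacylglycerol. It stood at 1160, 4873 and 7870 normalized counts in Angus and at 23939, 68935 and 73863 in Chinese Simmental. Every Chinese Simmental library was above every Angus library, the nearest being 3.04-fold apart, yet the Angus libraries themselves spanned 6.79-fold. The Chinese Simmental mean of 55579 ± 27511 (SD, n = 3) was 12.0 times the Angus mean of 4634 ± 3362. The log2 fold change was -3.58 ± 0.74 (adjusted p = 0.00452 in edgeR's quasi-likelihood test), larger in size than for 90.7% of tested listed genes. It was -4.20 without Angus replicate 3 and -2.15 with TMM factors, and the direction was the same under every setting tried.

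The absolute level of DGAT2 is uncertain. In FPKM it was at 277, 1068 and 1727 in Angus and at 6233, 14861 and 14022 in Chinese Simmental, the highest of the 7 enzymes and rank 15 among the 2040 listed genes. Its count per FPKM was 0.0400 of the library median, lower than for all but 3.63% of genes compared, and GPAT4 gave 69.2 times as many counts per FPKM. The transcript lengths behind the FPKM values are not known here. The ratio hardly varied between libraries (0.0389 to 0.0417), so comparisons of DGAT2 between libraries are not touched: the breed fold was 11.4 in FPKM and 12.0 in counts. Comparisons of its level with other enzymes are.

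**Figure D2:**
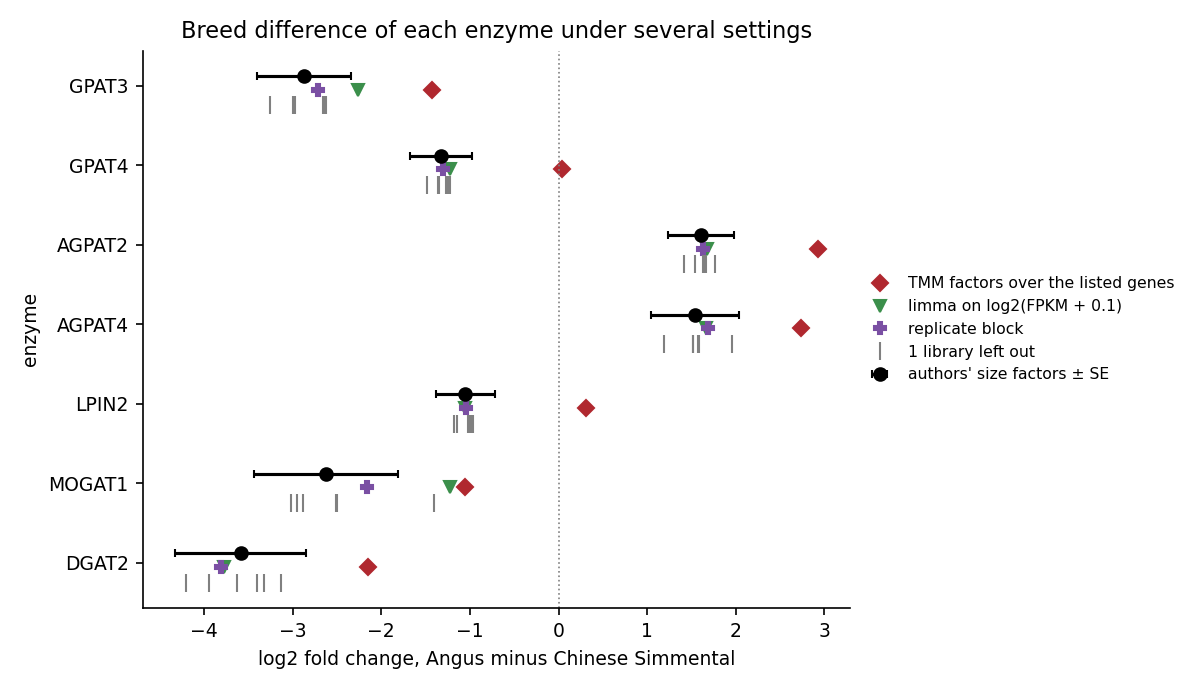
Log2 fold change of each enzyme, Angus minus Chinese Simmental, with the authors' size factors (black, ± SE), with TMM factors over the listed genes (red), from FPKM (green), with a replicate block (purple) and with 1 library left out (grey ticks). TMM factors move all enzymes to the right and bring GPAT4 (0.045) and LPIN2 (0.30) across 0, whereas DGAT2 stays at -2.15 and AGPAT2 at 2.92.

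Spread within a breed differed among the enzymes. In Angus the coefficient of variation was 5.70% for AGPAT4, 6.84% for GPAT4, 7.37% for AGPAT2 and 11.6% for LPIN2, and 72.5% for DGAT2. The median listed gene had 30.1% in Angus, and 6 of 7 enzymes were below it, all but DGAT2. In Chinese Simmental the enzymes lay on both sides of the median of 39.4%, with LPIN2 (15.7%), GPAT4 (20.6%) and AGPAT2 (25.1%) below it and DGAT2 (49.5%), GPAT3 (52.7%), AGPAT4 (52.9%) and MOGAT1 (99.2%) above it. Each value rests on 3 libraries.

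Chinese Simmental replicate 1 was the library of its breed nearest to Angus for 7 of 7 enzymes, whichever breed was higher. It was nearest for 60.9% of the 2040 listed genes. On the Angus side replicate 2 was nearest to Chinese Simmental for 4 enzymes, replicate 3 for 2 and replicate 1 for 1. Over the listed genes these shares were 12.1%, 46.3% and 41.6%. Without Chinese Simmental replicate 1 all 7 calls held, and log2 fold changes ran from -3.95 for DGAT2 to 1.96 for AGPAT4.

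A ratio of 2 enzymes within a library is free of the library scaling, and so are the shares of the enzymes in their summed counts. Shares of counts are not corrected for length and are used here only across libraries. DGAT2 took 7.72%, 24.2% and 33.7% of the summed enzyme counts in Angus and 50.2%, 66.3% and 67.0% in Chinese Simmental. When DGAT2 was set aside, GPAT4 held 55.1 to 57.4% of the remainder in Angus and 65.1 to 67.0% in Chinese Simmental. AGPAT2 held 13.8 to 15.7% in Angus and 1.50 to 3.70% in Chinese Simmental, so these ranges lay apart. The share of LPIN2 did not separate the breeds, at 17.7 to 21.7% against 18.7 to 21.3%. The shares of GPAT3 and AGPAT4 also lay apart between the breeds, and that of MOGAT1 overlapped (0.0637 to 0.106% against 0.105 to 0.440%).

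**Figure D3:**
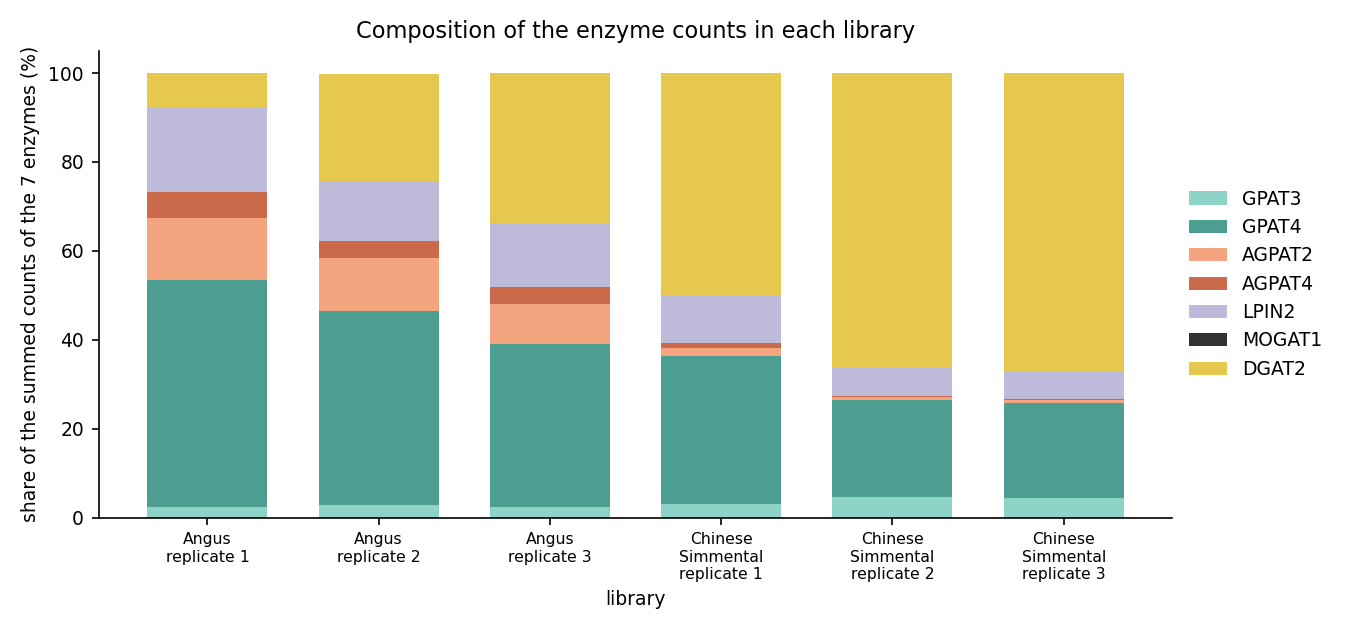
Share of each enzyme in the summed counts of the 7 enzymes (vertical axis, percent), one bar per library. DGAT2 grows from 7.72 to 33.7% in the Angus bars to 50.2 to 67.0% in the Chinese Simmental bars. The shares of AGPAT2, AGPAT4, GPAT4 and LPIN2 shrink, although GPAT4 and LPIN2 have the higher normalized counts in Chinese Simmental. MOGAT1 is too small to see.

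Between the enzymes of the first step, GPAT3 amounted to 0.0451, 0.0664 and 0.0670 of the GPAT4 count in Angus and to 0.0897, 0.206 and 0.202 in Chinese Simmental. The ratio did not overlap between breeds and was 2.65-fold higher in Chinese Simmental in counts and 2.07-fold in FPKM. AGPAT2 and AGPAT4 differed from this pattern. Their ratio was 2.40, 3.04 and 2.45 in Angus and 1.995, 1.73 and 5.92 in Chinese Simmental, and the breeds overlapped. The mean log2 ratio of AGPAT2 to AGPAT4 differed by -0.07 between the breeds, with an SD of 0.97 in Chinese Simmental. The overlap rested on Chinese Simmental replicate 3: without it the difference was 0.49 and both other libraries of that breed lay below all Angus libraries.

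DGAT2 and AGPAT2 gave the widest of the ratios compared. DGAT2 reached 0.551, 2.03 and 3.68 times the AGPAT2 count in Angus and 27.3, 132 and 94.5 times in Chinese Simmental, a 43.5-fold difference between breeds (log2 difference -5.44, and -4.67 without Angus replicate 1, -6.04 without Angus replicate 3 or -6.12 without Chinese Simmental replicate 1). The ratio of DGAT2 to GPAT3 was nearly constant in Chinese Simmental, at 16.8, 14.6 and 15.5, and varied in Angus, at 3.35, 8.37 and 13.8. The log2 SD of that ratio was 0.10 in Chinese Simmental and 1.04 in Angus. Its log2 difference between the breeds was -1.10, and -0.54 without Angus replicate 1 or -1.56 without Angus replicate 3. In FPKM, where GPAT3 varies with the unit, the Chinese Simmental ratios were less even, at 198, 332 and 427, with an SD of 0.56. DGAT2 to MOGAT1 overlapped between breeds. With 3 libraries against 3 an exact two-sided permutation test of a ratio cannot give a p below 0.1, and the enzymes were listed for differing, so these ratios were not tested.

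**Figure D4:**
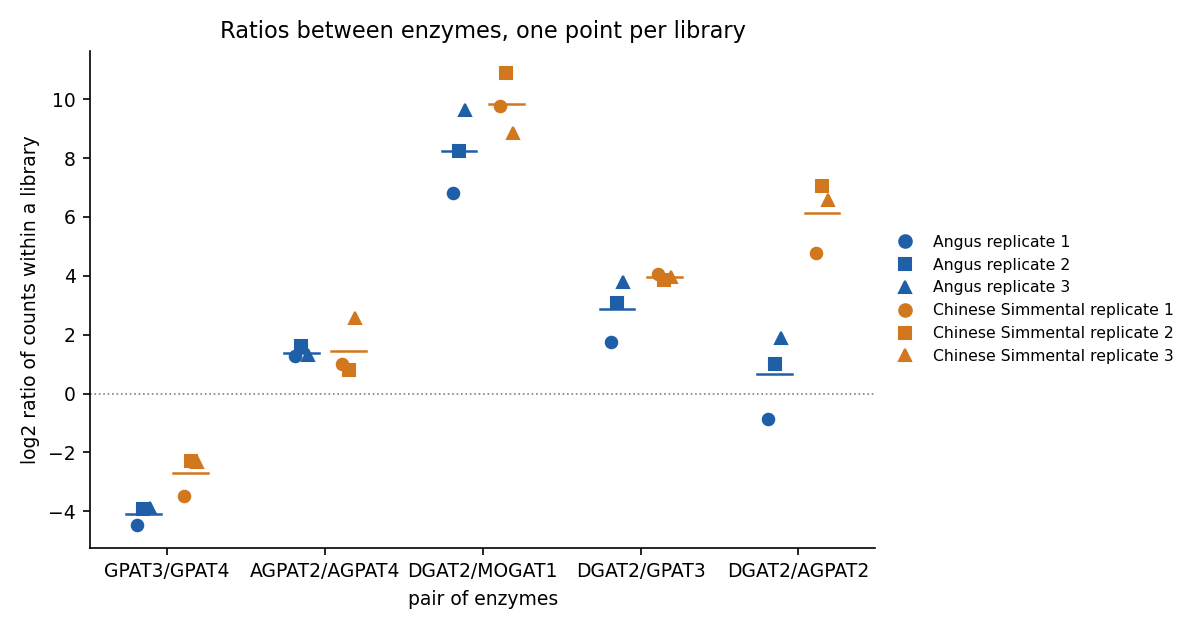
Log2 ratio of counts of 2 enzymes within a library (vertical axis), one point per library, with a line at the mean of each breed. GPAT3/GPAT4, DGAT2/GPAT3 and DGAT2/AGPAT2 lie higher in all Chinese Simmental libraries, the last by 43.5-fold, and AGPAT2/AGPAT4 and DGAT2/MOGAT1 overlap. For DGAT2/GPAT3 the nearest libraries have ratios of 13.8 (Angus replicate 3) and 14.6 (Chinese Simmental replicate 2).

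Genes around the pathway in the table were mostly higher in Chinese Simmental with the authors' size factors. Each count here stands against a background in which 75.0% of tested listed genes were called in that direction. Fatty acid activation and uptake had 2 of 20 genes in the table, both called higher in Chinese Simmental, the acyl-CoA synthetase ACSL6 at 8566 ± 3176 against 818 ± 218 and the lipoprotein receptor VLDLR at 1531 ± 353 against 173 ± 109. Glycerol phosphate supply had 2 of 9, glycerol kinase GK at 4006 ± 1155 against 666 ± 161 and the glycerol channel AQP9 at 1158 ± 691 against 163 ± 64.8, both also called. The lipolysis list had 3 of 11 genes, namely LIPE, ADRB3 and G0S2. It did not separate genes that promote lipolysis from genes that restrain it. Lipid droplet genes had 1 of 13 and fatty acid synthesis 2 of 14. The listed genes of these lists were all called higher in Chinese Simmental. Of 21 genes that handle phosphatidic acid and diacylglycerol at branch points 3 were listed and called in that direction. CDS2, which draws phosphatidic acid toward phospholipids, stood at 16927 ± 6697 against 7162 ± 1490, the phospholipase PLD1 at 569 ± 110 against 153 ± 98.7, and the diacylglycerol kinase DGKG at 270.2 ± 172 against 29.4 ± 14.2. Of 13 transcription factors of lipid storage 7 were listed, and all 7 were called higher in Chinese Simmental, with a median log2 fold change of -2.33.

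By the annotation in the deposited table, 4 genes carried the term triglyceride biosynthetic process, and all 4 were among the enzymes described here (MOGAT1, DGAT2, GPAT4 and LPIN2). The acyltransferase domain was annotated in 5 listed genes, namely GPAT3, GPAT4, AGPAT2, AGPAT4 and LPCAT2, a lysophospholipid acyltransferase of leukocytes. LPCAT2 stood at 5497 normalized counts in Chinese Simmental and 644 in Angus (log2 fold change -3.09 ± 0.47, adjusted p = 0.00248 in edgeR's quasi-likelihood test). Of 36 listed loci in the class of lipid transport and metabolism 6 were these enzymes. Of the other 30, 8 had the larger mean in Angus and 22 the larger mean in Chinese Simmental, with a median log2 fold change of -1.30.

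Profiles most like each enzyme were sought among 1424 other listed genes with a symbol and a mean FPKM of at least 1, by the root mean square difference of centred log2 normalized counts over the 6 libraries. Since the spread of each row was kept, a near profile is one with a like breed difference (log2 fold change 1.61 for AGPAT2, 1.71 for RASGRP3). A shared cell of origin was not tested. For DGAT2 the nearest were SDS, a serine dehydratase (0.157), and MRPS15, a mitochondrial ribosomal protein (0.294), and for GPAT3 they were MEGF9 (0.165) and the leukocyte adhesion molecule ICAM3 (0.216). GPAT4 lay nearest to the amino acid transporter SLC36A1 (0.0695), whose counts were identical to those of another entry, BERV-K1. LPIN2 lay nearest to the kinase MAPKAPK2 (0.0521) and to DTX3L (0.0777). AGPAT2 lay nearest to RASGRP3, a Ras activator of B cells (0.104), and to ZNF367 (0.152), and AGPAT4 to LGR4 (0.285) and FCMR, the IgM receptor of lymphocytes (0.297). MOGAT1 lay nearest to THBS1 (0.286) and PLAUR (0.310). Among the enzymes themselves GPAT4 and LPIN2 were the closest pair (0.175), and no enzyme lay nearer than 0.814 to DGAT2.

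The markers of other cell types moved with the breeds as well. All 16 listed neutrophil and monocyte markers were called higher in Chinese Simmental, as were all 5 listed adipocyte markers of 20 (DGAT2 itself, CFD, RETN and LIPE among them), against 75.0% of all tested listed genes. In both breeds replicate 3 had the highest myeloid sum (121554 in Angus, 1532226 in Chinese Simmental) and the highest DGAT2. Replicates 1 and 2 had sums of 101150 and 73674 in Angus, with DGAT2 at 1160 and 4873, and of 884638 and 854398 in Chinese Simmental, with DGAT2 at 23939 and 68935. The other adipocyte markers summed to 47145, 17073 and 26533 in Angus, where their highest library had the lowest DGAT2. In Chinese Simmental they summed to 120169, 92179 and 193447, and replicate 3 was highest for both. CFD alone made up most of these adipocyte sums, at 45009, 16100 and 25085 in Angus and 115921, 88766 and 184584 in Chinese Simmental. The neutrophil and monocyte marker LYZ had the same order of libraries as CFD in both breeds. LYZ stood at 9252, 3810 and 6120 in Angus and at 103465, 52788 and 195911 in Chinese Simmental. S100A8, S100A9 and S100A12 differed from CFD in Angus, where replicate 3 was highest for them. Whether CFD came from adipocytes was not tested. The part of the myeloid and adipocyte markers in the breed difference of DGAT2 was not tested.

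**Figure D5:**
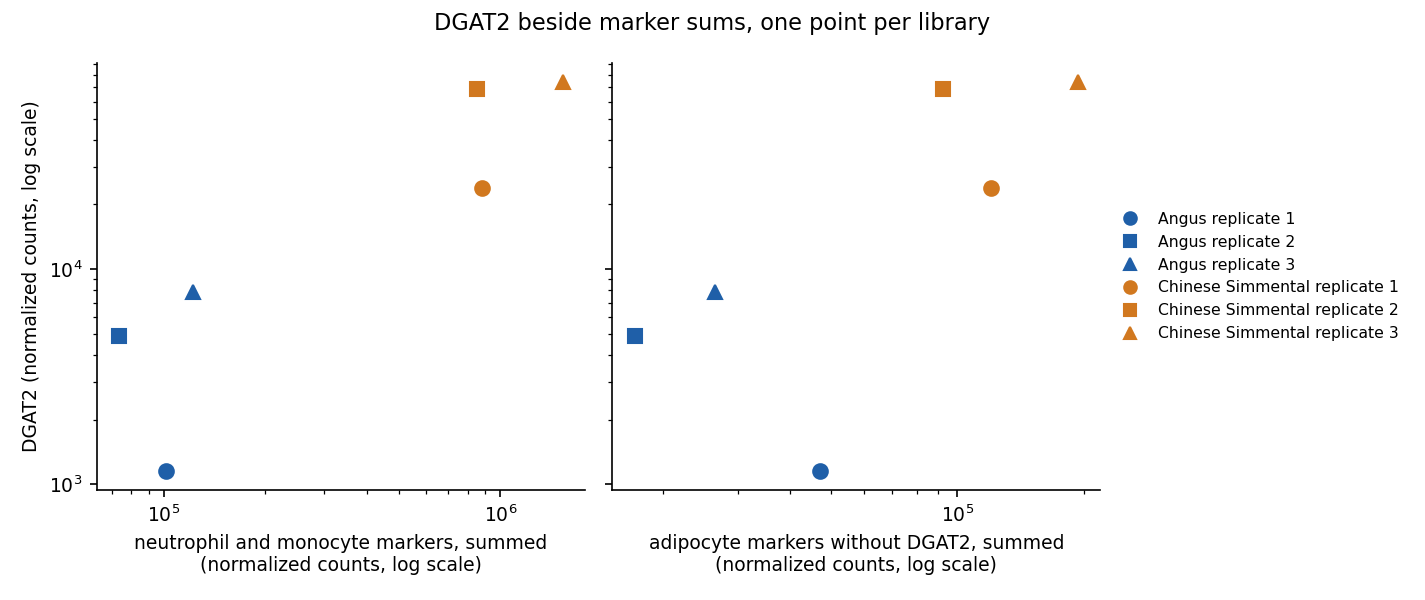
DGAT2 against the summed neutrophil and monocyte markers (left) and the summed adipocyte markers without DGAT2 (right), all in normalized counts on log axes, one point per library. The breeds form separate clusters in both panels, and Angus replicate 1 has the lowest DGAT2 (1160) with the highest adipocyte sum of its breed (47145). CFD makes up most of the adipocyte sum (45009 in that library), and whether it came from adipocytes was not tested.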

How the data were processed

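RNA-seq libraries from longissimus dorsi of Angus (n = 3) and Chinese Simmental cattle (n = 3) were grouped and numbered by their titles. The submitters' processing notes name HISAT2 and the ARS-UCD1.2 assembly. How reads were counted, on which annotation and strand, and with which tool the breeds were compared is not stated there. Per the file headers, the deposited table held whole-number counts, FPKM, breed means of scaled counts (a normalized signal), the authors' log2 fold change, and the authors' p-value with its adjusted value. It had 2040 gene rows and 1 blank row, left out, and 0 per-sample columns were left unused. Reads of paralogs could be split by the counting.

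Size factors were solved from the deposited means (largest relative residual 1.52e-09). All genes were fitted with edgeR 4.0.16 in R 4.3.3 (quasi-likelihood test, filterByExpr with minimum count 10, breed as the only term, Benjamini-Hochberg adjusted p under 0.05 over 1989 genes). SE is the fold change divided by the square root of F. The fit was run on simulated counts in which a minority of genes changed, equally in both directions. That setting differs from this table of selected genes, so it gives no error rate for the calls here. TMM and RLE factors, DESeq2 1.42.0, limma 3.58.1 on log2 FPKM with a pseudocount of 1 or 0.1, no filter, a replicate block and leaving out each library were the alternatives. Same-numbered libraries of the breeds deviated together over all tested genes (correlations 0.274, 0.157 and 0.255). Differently numbered pairs ran from -0.361 to 0.223, the highest being Angus replicate 3 with Chinese Simmental replicate 2, above the 0.157 of replicates 2. The main fit did not pair the libraries, and the replicate block was run only as an alternative. The labels do not say what the number marks. No 2 libraries of a breed agreed within sampling noise (chi-square per gene at least 295). The enzymes, 13 gene lists, tests and naming rule (the enzymes, the 2 nearest profiles of each, and up to 4 genes per list by mean FPKM) were chosen with earlier results of these data known. LPCAT2 was named after its values were seen. Symbols of all 7 enzymes matched RefSeq on ARS-UCD2.0, a different assembly, so no coordinates are given.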

Additional observations from a re-analysis of the deposited data

How the results depend on the processing

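Of 152 values under alternatives, 5 changed direction and 8 lost a call or, for the count of enzymes, fell from 5 to 2. With TMM and RLE factors computed over the listed genes, which moved all fold changes toward Angus by a median of 1.36 and 1.35, 2 enzymes (GPAT3 and DGAT2) were called higher in Chinese Simmental under each in place of 5, against 12.9% and 13.2% of tested listed genes in place of 75.0%. The count was 4 in limma on log2(FPKM + 1) and without Angus replicate 1, Angus replicate 2 or Chinese Simmental replicate 3. Over all listed genes 256 and 263 were called higher in Chinese Simmental with TMM and RLE in place of 1492, and 291 higher in Angus without Angus replicate 2 in place of 495. GPAT4 turned to 0.045 and 0.053 and LPIN2 to 0.30 and 0.30, and MOGAT1 lost its call at -1.06 and -1.03. MOGAT1 also lost its call in limma on log2(FPKM + 1), at -0.30, a scale that understates the change of low genes. Leaving out 1 library gave a range of -1.17 to -0.96 for LPIN2, of -3.02 to -1.40 for MOGAT1 and of -0.40 to 0.49 for the log2 ratio of AGPAT2 to AGPAT4. In limma on log2(FPKM + 0.1), GPAT3 was at -2.26 and MOGAT1 at -1.23, against -2.87 and -2.62 in counts. With the replicate block, which pairs same-numbered libraries, the calls were 5 and 2 as before and no call changed; DGAT2 was at -3.81 and MOGAT1 at -2.16. The factors centre a table of selected genes by construction. Depth over all genes is unknown, and counts of 10 to 13 limit MOGAT1 in Angus.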
